A study of Homo sapiens with 4 samples.

Results

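HAUSP promoter peaks in H1299 are the ChIP-seq peaks of the deubiquitinase HAUSP that came within 500 bp of a transcription start site (TSS), up- or downstream. Of the 1379 HAUSP peaks deposited for H1299, 459 touched such a promoter window, or 33.3% (95% Clopper-Pearson interval 30.8 to 35.8), and 920 did not. The TSS was the outermost start of each of 64449 genes in GENCODE release 44, mapped to GRCh37, which shares its coordinates with the hg19 build of the peak lists. Neither the score of a peak nor the other lists entered the choice.

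ChIP-seq sequences the DNA that an antibody recovers from chromatin. The antibodies were against HAUSP in H1299, a human lung cancer cell line, and in MDA-MB-231, a human breast cancer cell line, and against HIF-1α in H1299. The 3 lists held 1379 HAUSP peaks of H1299, 1343 HAUSP peaks of MDA-MB-231 and 4054 HIF-1α peaks, each from 1 library without a replicate, and the H1299 input library was not used here. The oxygen level of the cultures and the control for peak calling are not given in the sources used here. Each peak carries a score that the authors deposited without naming its scale, so scores rank peaks within a list and are not compared between lists. Read depth is unknown, all intervals cover counting error only, and no test between groups was possible with 1 library per list.

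HAUSP, also named USP7, removes ubiquitin from proteins, among them MDM2, p53 and histones, and acts mainly in the nucleus. HIF-1α is the oxygen-regulated subunit of the HIF-1 transcription factor, which binds the core ACGTG of hypoxia response elements. Many human promoters lie in CpG islands, which are rich in GC and keep their CpG dinucleotides, and many such promoters are divergent, with 2 genes starting back to back on opposite strands.

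Sequences are shown first for peaks present in all 3 lists, as these had the highest scores among protein-coding promoters. Each site below is the copy of ACGTG nearest to the centre of the HIF-1α peak, within the stretch that the HAUSP and HIF-1α peaks of H1299 share, read 5′ to 3′ on the strand named, with ACGTG in capitals and hg19 coordinates.
KDM3A, chr2:86667953-86667977, minus strand: agggaagagaACGTGcggtttcagg
KDM4B, chr19:4968592-4968616, minus strand: ccggccgggaACGTGcaggctggag
NARF, chr17:80416066-80416090, plus strand: cgccgagcctACGTGacacgacgtc
ANKRD37, chr4:186317602-186317626, plus strand: ctaccgggagACGTGtcaaactcag
ENO1, chr1:8939139-8939163, minus strand: cgagggccggACGTGgggccccaga
SEC61G, chr7:54826997-54827021, plus strand: gcgcagcgcgACGTGcgcccggcca
LDHA, chr11:18416013-18416037, minus strand: gcgggaacccACGTGtgagtcgggc

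The sites of KDM3A, NARF, ENO1 and SEC61G lay in exons of those genes, that of ANKRD37 in its intron, and those of KDM4B and LDHA between genes. Sites were searched in 26 of the peaks that lay in all 3 lists and touched a protein-coding window, with 1 further such peak left out, and 25 held ACGTG in the shared stretch, or 96.2% (interval 80.4 to 99.9). The peak at RAPGEF6, an exchange factor for Rap GTPases, held 0 copies there. ACGTG is short, however, and was in 52.6% of the promoter windows of all protein-coding genes. It was in 71.3% of the protein-coding windows whose HAUSP peak was in neither other list. Those windows differ in length from the shared stretches, and matched stretches were not counted. The median distance of the nearest copy from the centre of the HIF-1α peak was 41 bp. That copy was the nearest of up to 7, so its distance is short in part by choice. No expected distance was computed.

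Stretches of 120 bp just upstream of the TSS follow for other high-scoring promoters of each overlap class. They come from high-scoring promoters whose upstream stretch had no annotated exon, so the run ends at the base before the TSS. RLF, LDHA, OXSR1, NRN1, WDR36 and DHX40 were picked because their stretch holds ACGTG, and TMEM248 and ZNF146, each with a higher score than another promoter shown for its class, because theirs does not. Capitals mark, on either strand, ACGTG of HIF-1 and the E-box CACGTG that contains it, TGACGTCA of CREB and ATF factors, GGGCGG of SP1 and the AP-1 site TGACTCA. A core on the opposite strand appears as its reverse complement, such as CACGT for the HIF-1 core. RLF and LDHA stand for peaks in all 3 lists, TMEM248 and OXSR1 for HAUSP peaks shared with MDA-MB-231 only, NRN1 for one shared with HIF-1α only, and WDR36, ZNF146 and DHX40 for peaks found only in the H1299 HAUSP list.
RLF, chr1:40626939-40627058, plus strand: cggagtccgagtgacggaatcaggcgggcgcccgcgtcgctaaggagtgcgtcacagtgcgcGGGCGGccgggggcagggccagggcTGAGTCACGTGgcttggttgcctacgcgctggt
LDHA, chr11:18415987-18416106, plus strand: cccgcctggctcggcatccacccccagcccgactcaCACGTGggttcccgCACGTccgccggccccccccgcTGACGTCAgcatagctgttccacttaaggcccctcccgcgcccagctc
TMEM248, chr7:66386092-66386211, plus strand: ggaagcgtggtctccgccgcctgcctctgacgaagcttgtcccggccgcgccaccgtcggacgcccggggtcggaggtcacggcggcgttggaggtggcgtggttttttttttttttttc
OXSR1, chr3:38206460-38206579, plus strand: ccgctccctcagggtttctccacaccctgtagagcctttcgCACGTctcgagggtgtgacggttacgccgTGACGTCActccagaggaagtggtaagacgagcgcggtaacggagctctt
NRN1, chr6:6007839-6007958, minus strand: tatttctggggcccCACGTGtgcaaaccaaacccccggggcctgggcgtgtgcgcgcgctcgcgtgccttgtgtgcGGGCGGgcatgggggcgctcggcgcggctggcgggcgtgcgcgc
WDR36, chr5:110427899-110428018, plus strand: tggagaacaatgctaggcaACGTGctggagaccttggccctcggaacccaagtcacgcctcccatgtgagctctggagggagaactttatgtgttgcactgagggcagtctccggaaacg
ZNF146, chr19:36705384-36705503, plus strand: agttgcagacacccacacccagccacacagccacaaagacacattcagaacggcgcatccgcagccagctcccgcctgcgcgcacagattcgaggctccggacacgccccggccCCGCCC
DHX40, chr17:57642799-57642918, plus strand: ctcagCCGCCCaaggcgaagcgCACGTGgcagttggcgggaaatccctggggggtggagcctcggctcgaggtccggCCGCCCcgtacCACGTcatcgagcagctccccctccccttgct

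The LDHA stretch held CACGTG, a further copy of ACGTG on the opposite strand and the palindrome TGACGTCA. In the RLF stretch, TGAGTCA and CACGTG shared bases and formed 1 run of capitals. The NRN1 stretch held CACGTG, but all of it lay outside the HIF-1α peak of that promoter (chr6:6008032-6008646). The WDR36 stretch held ACGTG and the DHX40 stretch held CACGTG, and neither promoter overlapped a HIF-1α peak. The TMEM248 stretch held none of the cores searched, and that of ZNF146 held GGGCGG only. Among the stretches not shown, those of ZNHIT1 and KRR1 held ACGTG, and those of KDM3A, ENO1, RAPGEF6, ZNF160, POM121C and DUS3L did not. A match of letters does not show that a factor was bound.

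The 459 promoter peaks touched the windows of 682 genes. A single gene was touched by 275 peaks, while 149 touched 2 genes, 32 touched 3, 2 touched 4 and 1 touched 5. Protein-coding genes made up 417 of the 682, or 61.1%, against 31.3% of all annotated genes. Among all 20163 protein-coding genes, 2.07% had a HAUSP peak at the promoter, and this share is the background for the gene groups below. Long noncoding RNA genes numbered 181 (26.5%, against 29.4% of all genes), pseudogenes 44 (6.45%, against 23.9%) and small RNA genes 33 (4.84%, against 13.2%). The share of genes bound was 0.956% for long noncoding RNAs, 0.388% for small RNAs and 0.286% for pseudogenes.

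The classes of genes differed in the places where their peaks lay. An assembly gap of at least 50 kb, such as those at centromeres and telomeres, lay within 1 Mb of 62.5% of the peaks at pseudogenes and 39.3% of those at small RNA genes, against 14.8% at protein-coding genes. The overlap with the HAUSP list of MDA-MB-231 was 45% at pseudogenes, 24.5% at long noncoding RNA genes, 21.4% at small RNA genes and 16.3% at protein-coding genes. The overlap with HIF-1α ran the other way between the extremes, with 5% at pseudogenes and 15.1% at protein-coding genes.

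Small nuclear RNA genes, whose products build the spliceosome, were among the small RNA genes. The peak at RNVU1-18 had a score of 141.19 and that at RNU1-1 60.89, both near an assembly gap. The RNU1-1 peak also touched the long noncoding RNA genes ENSG00000261135 and ENSG00000285853. The peak at RNU2-2P, with 73.32, also touched the protein-coding WDR74. Of the small nucleolar RNA genes, SNORD118 had a peak with 62.9 that touched no other gene. The peak at SNORD59A, with 74.2, also touched ATP5F1B, and that at SNORD105, with 70.78, also touched PPAN and PPAN-P2RY11, so these cannot be assigned to the small RNA gene alone. The small nuclear RNA genes are multi-copy families. The authors' mapping setting dropped reads that matched more than 1 place, so the signal at single copies is uncertain.

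Of the 459 promoter peaks, 121 touched no protein-coding window, and 47 of them lay near an assembly gap. The highest-scoring peak of all at a promoter was of this kind, at ROCK1P1, annotated as a long noncoding RNA gene, near the end of chromosome 18 (chr18:106305-111974), with a score of 947.11. It overlapped a MDA-MB-231 peak with a score of 702.85 and no HIF-1α peak. A peak at ENSG00000272008, a gene on chromosome 6, had a score of 773.5 and was in all 3 lists. The gene-level TSS of ZNF292, a zinc finger gene, lay 3116 bp from that peak, although a ZNF292 transcript starts under it. The pseudogene ENSG00000256663 had 683.3 and the microRNA gene AL732363.1 had 393.19, both shared with MDA-MB-231 only. Pseudogenes copied from mitochondrial DNA on chromosome 1 also had high scores, with 375.44 at MTATP8P1, MTATP6P1 and MTCO3P12, and 348.73 at MTCO2P12. The placement of reads between such copies and mitochondrial DNA is uncertain. These peaks and that at AL732363.1 also lay near an assembly gap. Of the 121 peaks, 16 touched the start of some transcript of a protein-coding gene, or 13.2%. ALDOA, the glycolytic aldolase, was of this kind, with its gene-level TSS 915 bp from a peak that had a score of 200.59.

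**Figure D1:**
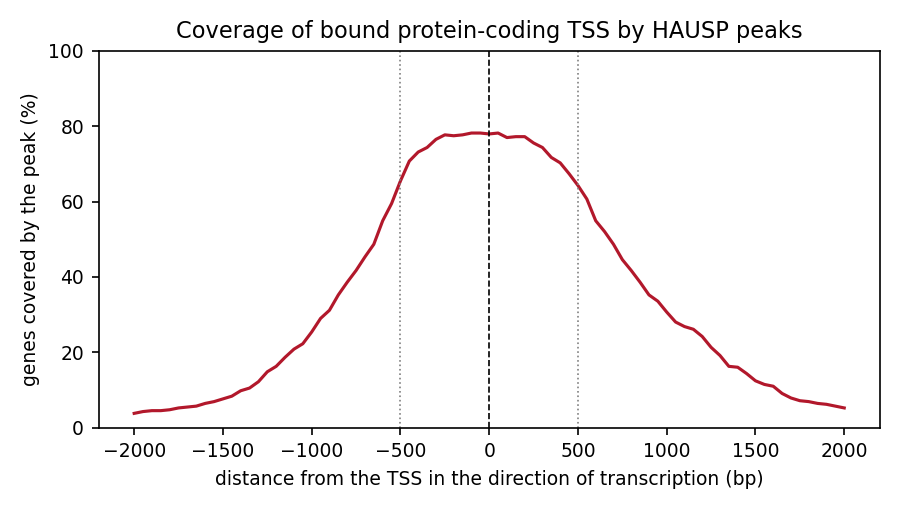
Share of the 417 bound protein-coding genes (y axis, percent) whose HAUSP peak covers each position from upstream to downstream of the TSS (x axis, bp). Coverage is highest near the TSS, which lay inside the peak for 325 genes, or 77.9%.

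At the bound protein-coding genes the TSS itself lay inside the peak in 325 of 417 cases, or 77.9% (interval 73.6 to 81.8). The centre of the peak lay a median of 13 bp downstream of the TSS, with quartiles of -248 and 365 bp. The median width of a promoter peak was 1248 bp, against 1184 bp for HAUSP peaks elsewhere. The centring is in part fixed by the choice of peaks that touch a window, and it was not tested.

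The median score was 66.91 at promoters, with a range of 50.1 to 947.11, and 74.6 for HAUSP peaks elsewhere. A score of at least 100 was reached by 100 promoter peaks, or 21.8%, and by 31.3% of the others. Outside the zones near assembly gaps the medians were 66.34 for 362 promoter peaks and 69.3 for 496 others. Peaks near gaps were 21.1% of the promoter peaks and 46.1% of the others.

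Overlap with the other lists was counted from 1 bp upwards. The share with a MDA-MB-231 peak was lower, and that with a HIF-1α peak higher, at promoters than over all HAUSP peaks. A HAUSP peak of MDA-MB-231 overlapped 97 promoter peaks, or 21.1% (interval 17.5 to 25.2), against 39.5% of all 1379 peaks and 48.7% (45.4 to 52.0) of the 920 outside promoters. A HIF-1α peak overlapped 59 promoter peaks, or 12.9% (9.93 to 16.3), against 7.98% of all peaks and 5.54% (4.15 to 7.22) of those outside. Both lists overlapped 33 promoter peaks, or 7.19%, against 4.57% of all peaks. With peaks near assembly gaps set aside, the share with a MDA-MB-231 peak was 19.3% (15.4 to 23.8) at promoters and 40.3% (36.0 to 44.8) elsewhere. The share with a HIF-1α peak was then 14.4% (10.9 to 18.4) at promoters and 8.87% (6.52 to 11.7) elsewhere, and these intervals overlap. Most promoter peaks, 336 or 73.2% (68.9 to 77.2), overlapped neither list.

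**Figure D2:**
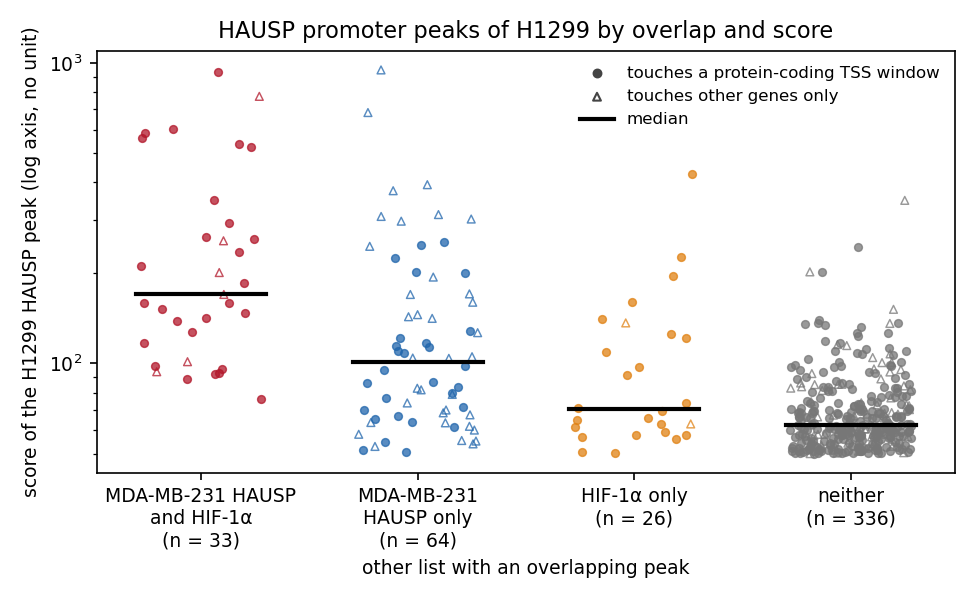
Deposited score of each of the 459 promoter peaks (log axis) by overlap with the other lists. The median was 169.6 for peaks in all 3 lists, 101.2 for those shared with MDA-MB-231 only, 70.28 with HIF-1α only and 62.16 with neither, and the classes overlap.

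The 33 promoter peaks in all 3 lists had a median score of 169.6, with a range of 76.24 to 930.15. Those shared only with MDA-MB-231, 64 in number, had a median of 101.2 and a range of 50.92 to 947.11. The 26 shared only with HIF-1α had a median of 70.28 and a range of 50.19 to 426.34, and the 336 in neither list a median of 62.16 and a range of 50.1 to 348.73. The ranges of all 4 classes overlapped. Peaks shared only with MDA-MB-231 stood out by what they touched, as 43.8% of them lay at a protein-coding gene and 37.5% near an assembly gap. The corresponding shares were 81.8% and 9.09% for peaks in all 3 lists, 92.3% and 15.4% for HIF-1α only, and 77.1% and 19.6% for neither list.

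The share of overlapping peaks was higher in the higher range of scores. The promoter peaks were divided by score into 4 bands of 114 or 115 peaks. In the lowest band, from 50.1 to 57.5, 6.09% of 115 peaks overlapped a MDA-MB-231 peak and 3.48% a HIF-1α peak. In the highest band, from 93.83 to 947.11, the shares were 54.8% (45.2 to 64.1) and 33.9% (25.3 to 43.3) of 115 peaks. The shares near an assembly gap were 22.6% in both bands. Among peaks outside promoters, those in the same highest band, with scores of 94.01 or more, overlapped MDA-MB-231 in 80.5% (75.7 to 84.7) and HIF-1α in 11.1% (7.93 to 15.1) of 323 cases. In this band the intervals of promoter peaks and other peaks did not overlap for either list. The others were nearer to assembly gaps, with 54.8% of them near one, and the part of this in the difference was not tested.

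**Figure D3:**
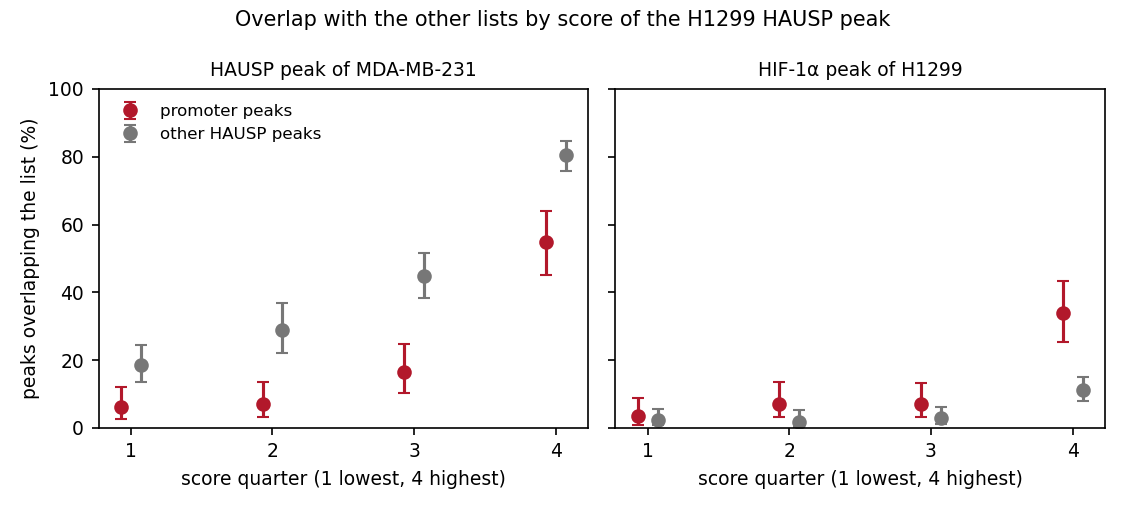
Share of HAUSP peaks (y axis, percent, with 95% Clopper-Pearson intervals) that overlap the MDA-MB-231 or the HIF-1α list, by band of score, with the 4 bands cut at the quartiles of the promoter peaks. In the top band the HIF-1α share is 33.9% at promoters and 11.1% elsewhere, and the MDA-MB-231 share is 54.8% and 80.5%.

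Where 2 lists overlapped at a promoter, the peaks lay nearly on top of each other. The 97 shared peaks of the 2 cell lines shared a median of 972 bp and their centres were a median of 93 bp apart. Across these 97 peaks the scores of the lists had a Spearman correlation of 0.686, given as a description since peaks of 1 library are not independent replicates. For the 59 peaks shared with HIF-1α the median shared length was 540 bp, the centres were 120 bp apart and the correlation was 0.57. The HIF-1α peak lay wholly inside the HAUSP peak in 52 of the 59 cases, or 88.1%.

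KDM3A, a demethylase of histone H3 lysine 9 that is a known HIF-1 target, had the highest score of any protein-coding promoter. Its HAUSP peak (chr2:86667372-86668620) had a score of 930.15 in H1299, the MDA-MB-231 peak there had 574.36 and the HIF-1α peak 641.43. KDM4B, a demethylase of the same family (chr19:4967982-4968969), followed with 600.77 in H1299, 314.64 in MDA-MB-231 and 322.3 for HIF-1α. The peak centre lay 649 bp upstream of the KDM4B TSS, whereas that of KDM3A lay 226 bp downstream. NARF, which encodes a factor that binds prelamin A (chr17:80415471-80416634), had 586.12, 360.38 and 644.51 in the same order. The peak at LRP2BP and ANKRD37, an ankyrin repeat gene induced by hypoxia (chr4:186317334-186318375), had 563.87, 518.91 and 287.42. KDM3A and NARF lay within 1 Mb of an assembly gap.

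ENO1, the glycolytic enolase (chr1:8937882-8939303), had 535.84 in H1299, 218.09 in MDA-MB-231 and 277.52 for HIF-1α. SEC61G, a subunit of the channel that moves proteins into the endoplasmic reticulum (chr7:54826690-54827566), had 350.56, 104.6 and 356.16. Both promoters shared their peak with a noncoding gene on the opposite strand, ENO1-AS1 and SEC61G-DT. ITFG2 had a HAUSP score of 292.53, RAPGEF6 263.25, RLF, a zinc finger gene, 259.69 and LDHA, the lactate dehydrogenase subunit of anaerobic glycolysis, 234.8.

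Among promoters shared by the 2 cell lines without HIF-1α, protein-coding genes had scores up to 253.27. TMEM248 had 253.27 in H1299 and 165.23 in MDA-MB-231, and OXSR1, a stress-responsive kinase, had 246.96 and 97.69. KRR1, a factor of small ribosomal subunit assembly, had 224.7 and 72.22. DDX18, a DEAD box helicase, had 200.06 in H1299, and ZNF160 had 202.04.

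Promoters shared with HIF-1α but not with MDA-MB-231 were led by GTF2IRD2B, with 426.34 for HAUSP and 106.78 for HIF-1α. It has near-identical copies nearby, as POM121C does (194.91 and 84.0), and both lay near an assembly gap, so their values are uncertain. NRN1, which encodes neuritin, had 226.67 and 56.53, PNISR had 159.73 and 90.39, and DUS3L, a tRNA dihydrouridine synthase, had 140.68 and 52.58.

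Among promoters present in neither other list, EOLA1 had the highest HAUSP score of a protein-coding gene, 243.71. Its peak also touched ENSG00000241489 and EOLA1-DT and lay near an assembly gap, as did that at EOLA2 (95.03), so its value is uncertain. WDR36, a ribosome assembly factor, followed with 201.37, and TAL1, a transcription factor of blood formation, with 139.58. ZNF146 had 136.67, the helicase gene DHX40 136.48 and H4C16, a histone H4 gene, 135.71. HK2, the hexokinase that is a known HIF-1 target, had 133.92 and did not overlap a HIF-1α peak.

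Gene groups were read against the 2.07% of all protein-coding promoters that had a HAUSP peak. Among promoters that pass the CpG island criteria defined below, this share was 2.91%. The lists were written with earlier results of these data known, so a group's share is a description and not independent evidence. The group of canonical hypoxia-inducible and HIF pathway genes had the highest share, with 15 of 65 genes bound, or 23.1% (interval 13.5 to 35.2). Besides KDM3A, KDM4B, NARF, ANKRD37, ENO1, LDHA and HK2, these were P4HA1, DDIT4, TFRC, FUT11, STC2, INSIG2, HIF1AN and VEGFA. Of the 15, 9 overlapped a MDA-MB-231 peak and 10 a HIF-1α peak. Over all peaks at protein-coding promoters, these shares were 16.3% and 15.1%. P4HA1, a collagen prolyl hydroxylase subunit, had 98.11, DDIT4, an inhibitor of mTORC1 signalling, 95.85 and TFRC, the transferrin receptor, 92.76, each in all 3 lists. STC2, a secreted glycoprotein, had 65.77 and was shared with HIF-1α only. VEGFA, the angiogenic growth factor, had 52.18, near the lowest score in the list, and HIF1AN, the asparaginyl hydroxylase that inhibits HIF-1, had 54.41.

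The list of Jumonji and LSD histone demethylases had 4 of 31 genes bound, or 12.9% (3.63 to 29.8). One of the 4, HIF1AN, is not a histone demethylase, and KDM3A, KDM4B and HIF1AN were also counted in the hypoxia group. KDM5C, a demethylase of histone H3 lysine 4, had 80.81 and was in neither other list. The DEAD and DEAH box helicases, which remodel RNA, had 6 of 57 bound, or 10.5% (3.96 to 21.5). After DDX18 and DHX40 these were DDX41 with 76.76, EIF4A3 with 57.45, DDX24 with 52.48 and DDX50 with 50.7. Only DDX18 overlapped a MDA-MB-231 peak and only DDX50 a HIF-1α peak. That is 1 of 6 for each list, beside 16.3% and 15.1% of all peaks at protein-coding promoters.

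Mitochondrial groups were represented mostly by peaks of low score. Protein import and quality control had 3 of 31 genes bound, or 9.68% (2.04 to 25.8), an interval that holds the background of 2.07%. LONP1, the matrix protease, had 138.24 and was in all 3 lists, while TOMM20, an import receptor of the outer membrane, had 69.73 and HSPA9, the matrix Hsp70, 53.56. Respiratory chain and ATP synthase subunits had 6 of 98, or 6.12% (2.28 to 12.9). Among them were ATP5PO with 92.88, ATP5F1B with the 74.2 of the peak it shares with SNORD59A, NDUFA1 with 59.27 and NDUFB8 with 54.41. All of these were in neither other list, as were 76.6% of all peaks at protein-coding promoters. The interval of this group holds the 2.91% of island promoters, and 78.6% of its promoters passed the island criteria. The count includes ATP5MF-PTCD1, a readthrough gene that shares its peak with ATP5MF. Mitochondrial ribosomal proteins had 4 of 78, or 5.13% (1.41 to 12.6), an interval that also holds 2.07%. MRPS23, at 63.62, and MRPL28, at 61.47, were shared with MDA-MB-231.

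Genes of translation had intermediate shares, from small counts. Translation factors had 5 of 71 bound, or 7.04% (2.33 to 15.7), with EIF3K at 91.62, EIF5A at 85.96 and EIF3A at 62.86. That interval holds the 2.91% of island promoters, and 84.5% of the group passed the island criteria, against 57.5% of all promoters. One of the 5, EEF1AKMT3, is a methyltransferase taken in by its name. Aminoacyl-tRNA synthetases had 2 of 37, or 5.41% (0.661 to 18.2). Nuclear pore and transport genes had 3 of 43, or 6.98% (1.46 to 19.1), with NUP58 at 86.67, IPO13 at 56.05 and KPNA6 at 55.98. The intervals of the synthetases and of the nuclear pore group hold the background of 2.07%.

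ZNF genes, mostly zinc finger repressors that sit in clusters on chromosome 19, had 30 of 515 promoters bound, or 5.83% (3.96 to 8.21). Of the 30, 3 overlapped a MDA-MB-231 peak and 1 a HIF-1α peak, against 16.3% and 15.1% of all peaks at protein-coding promoters. On chromosome 19, 19 of 249 ZNF promoters were bound, or 7.63% (4.66 to 11.7), and elsewhere 11 of 266, or 4.14%. The other protein-coding genes of chromosome 19 had 37 of 1231 bound, or 3.01%. ZNF160 and ZNF146 led by score, followed by ZNF300 with 132.66 on chromosome 5 and ZNF654 with 110.13 on chromosome 3. ZNF345 and ZNF790 were touched by the same peak, with a score of 98.55, so bound genes are not independent counts. Histone genes, which are also clustered, had 5 of 88 bound, or 5.68% (1.87 to 12.8), an interval that holds the background of 2.07%. They were led by H4C16, with H2BC6 at 66.94 and H2AC15 and H2BC15 under a single peak at 59.55.

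The remaining groups lay closer to the background of all promoters. Genes of RNA polymerase, Mediator and the general transcription factors had 4 of 125 bound (3.2%), splicing factors 3 of 94 (3.19%) and Rab and vesicle transport genes 5 of 176 (2.84%). Ubiquitin-conjugating enzymes had 1 of 37 (2.7%), chaperones 2 of 82 (2.44%), cytosolic ribosomal proteins 2 of 89 (2.25%) and cell cycle genes 3 of 173 (1.73%). HNRNPK, an RNA-binding protein of splicing, had 106.52, and BUB1B, a kinase of the spindle checkpoint, had 69.29. Deubiquitinases, the class of HAUSP itself, had 1 of 114 bound (0.877%), the multi-copy gene USP17L23 beside an assembly gap. No peak touched the promoters of 50 proteasome genes, 85 DNA repair genes or 28 genes of HAUSP partners and the p53 pathway. Such counts of 0 allow shares of up to 7.11%, 4.25% and 12.3%. They hold only for the genes listed and for 1 TSS per gene. Bound genes outside the lists, such as RMI1, POLL and POLI, were not counted in them. The peak at ENSG00000256206, with a score of 126.91 and in all 3 lists, had its ACGTG site in an intron of PSMA1.

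**Figure D4:**
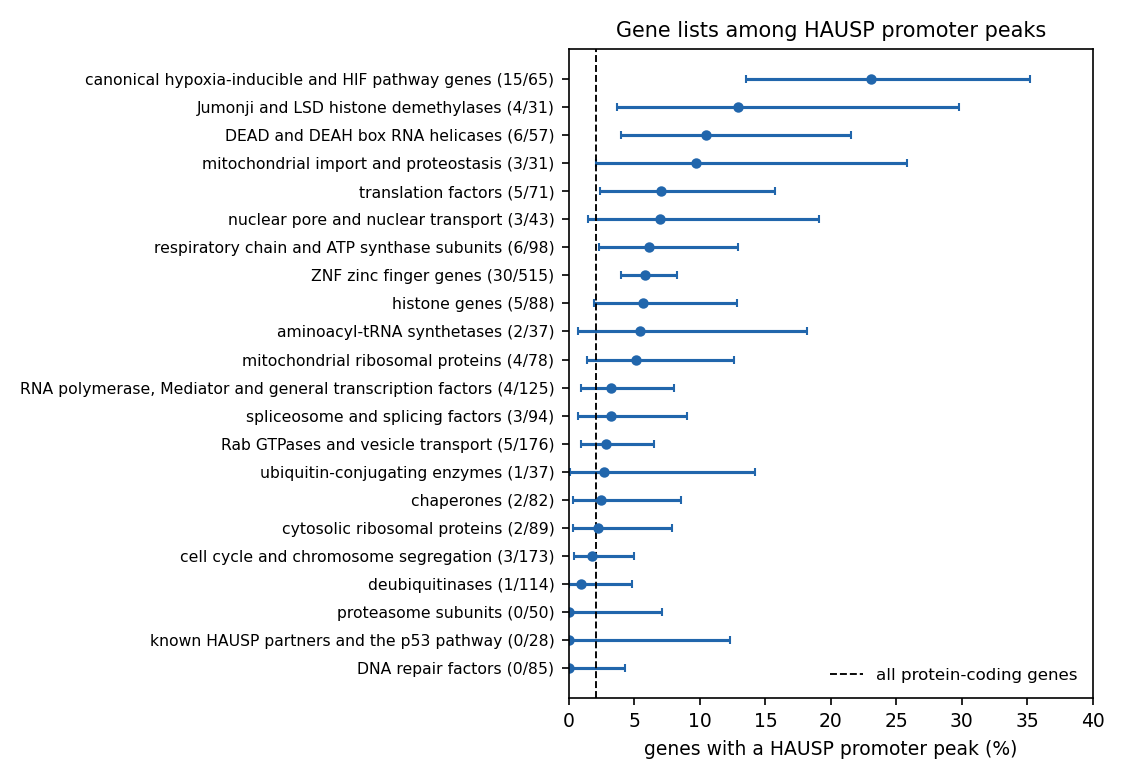
Share of the promoters of each gene group with a HAUSP peak in H1299 (x axis, percent, with 95% Clopper-Pearson intervals), with the 2.07% of all protein-coding promoters as a line. Hypoxia and HIF pathway genes had 23.1%, and the listed proteasome, DNA repair and p53 pathway genes had 0 at their gene-level TSS.

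Divergent promoters were counted where a single peak touched both windows of 2 genes that start back to back within 1000 bp. This held for 91 promoter peaks, or 19.8% (interval 16.3 to 23.8), with 108 pairs of genes and a median distance of 138 bp between the 2 TSS. A protein-coding gene paired with a long noncoding RNA gene in 41 pairs and with another protein-coding gene in 40. Among bound protein-coding genes, 128 of 417 had a divergent partner, or 30.7% (26.3 to 35.4), against 16.5% of all protein-coding TSS. One peak can count both genes of a pair, which raises the first share. Within promoters that pass the CpG island criteria defined below, the shares were 34.7% (29.6 to 40.1) and 24.8%.

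The median score was 62.86 for divergent peaks and 68.16 for the rest, and 16.5% against 22.3% overlapped a MDA-MB-231 peak, and 12.1% against 13.0% a HIF-1α peak. The highest-scoring pair of protein-coding genes was LRP2BP and ANKRD37, whose TSS lie 97 bp apart. LONP1 and CATSPERD, 65 bp apart under a peak with a score of 138.24, were also in all 3 lists. FKBP15 and SLC31A1, the latter the copper importer, had 111.96 and a distance of 86 bp, and HNRNPK and RMI1 had 106.52 and 167 bp, both in neither other list. UFSP2 and C4orf47 had 108.81 and 270 bp, and overlapped HIF-1α only.

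CpG content was read in the whole window of each protein-coding TSS, where an island was called at a GC content of at least 50% and a ratio of observed to expected CpG of at least 0.6. Of the 417 bound promoters 337 passed, or 80.8% (interval 76.7 to 84.5), against 57.5% of all 20163. Turned around, 2.91% of the 11600 promoters that passed had a HAUSP peak. The median observed to expected ratio was 0.767 at bound promoters and 0.686 at all, with lower quartiles of 0.658 and 0.325, while the median GC content was 59.7% and 59.1%. Under stricter criteria, 55% GC and a ratio of 0.65, 65.0% of bound promoters and 48.4% of all passed.

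The same criteria applied to the peaks themselves gave unlike shares at promoters and elsewhere. Of the promoter peaks 52.7% passed, against 6.09% of the others, and the median observed to expected ratios were 0.6488 and 0.2992. Within the promoter peaks, 87.9% of those in all 3 lists passed, 42.2% of those shared with MDA-MB-231 only, 65.4% with HIF-1α only and 50.3% with neither.

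Cores of known factors were searched on both strands of the TSS windows and set against all promoters that pass the island criteria. ACGTG was in 76.9% of the bound island promoters (interval 72 to 81.3) and 59.6% of all island promoters. With no regard to islands, it was in 72.9% (68.4 to 77.1) of the bound and 52.6% of all promoters. Split by overlap on that same footing, it was in 87.9% of the bound promoters whose peak was in all 3 lists, 78.8% of those shared with MDA-MB-231 only, 66.7% with HIF-1α only and 71.3% with neither. CACGTG, the E-box of MYC and USF factors, which contains ACGTG, was in 25.2% (20.7 to 30.2) and 21.6% of bound and all island promoters. That interval holds the share of all island promoters. CCGGAAGT, the core of ETS factors, was in 16.9% (13.1 to 21.4) and 11%. TGACGTCA, bound by CREB and ATF factors, was in 7.12% (4.62 to 10.4) and 4.62%, so the lower limit equals the second share. Among island promoters, ACTACAA, part of the ZNF143 site, was in 13.1% (9.65 to 17.1) of the bound and 7.41% of all, the AP-1 site TGACTCA in 9.5% (6.59 to 13.1) and 6.67%, and CCAAT, the NF-Y box, in 63.8% (58.4 to 68.9) and 60.4%. GCGCATGCG, the core of NRF1, was in 8.61% (5.84 to 12.1) and 5.36%, and ATGGCGGC, which holds the core of YY1, in 11.3% (8.1 to 15.1) and 12.1%. GGGCGG, bound by SP1, was in 90.8% (87.2 to 93.7) and 95.3%, and TATAAA in 17.8% (13.9 to 22.3) and 15.9%. No match says only that these letters are not in the window.

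The margin of the window was narrow for a few peaks. The peak at FHL3, with a score of 50.36, touched the window by 9 bp, that at a Y_RNA gene (68.62) by 12 bp and that at FBXL14 (97.98) by 14 bp. Just outside lay peaks 26 bp from the window of MLLT10P2 (99.97), 28 bp from that of ZDBF2 (122.98) and 31 bp from that of RELT (64.95). In all, 78 peaks, these included, lay within 1000 bp of a window without touching one.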

How the data were processed

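HAUSP ChIP-seq peaks of H1299 and MDA-MB-231 and HIF-1α peaks of H1299 were analysed, 1 library each. Mapping to hg19 by the authors used Bowtie 0.12.7, set to drop reads that matched more than 1 place, and peaks were called with MACS 1.4.2. The deposited lists give a position and a score per peak, used unchanged. The authors did not name the scale of the score, and depth is unknown. Starts were converted to count from 1. Gene TSS came from GENCODE release 44 mapped to GRCh37, on chromosomes 1 to 22, X and Y. A promoter window was 500 bp on either side, and overlap meant at least 1 bp. Intervals of shares are 95% Clopper-Pearson limits for counting error. Overlap counting was tested on simulated data. With 1 library per list no test was made. The members and all 22 gene lists were chosen with earlier results of these data known. Named genes are the highest-scoring peaks overall and in each overlap class, up to 4 bound genes per list (all for hypoxia, helicase and demethylase lists), the leading divergent pairs, and peaks nearest to the margin of a window. One item that this rule selects is withheld and its values are left out. Small nuclear and nucleolar RNA genes, ALDOA and ZNF292 were named after their values were seen. In all, 46 alternatives were tried. Tables were handled with pandas 2.3.3 and numpy 2.4.6 in Python 3.11.15, sequences with pysam 0.24.0, intervals with scipy 1.17.1 and plots with matplotlib 3.10.9.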

Additional observations from a re-analysis of the deposited data

How the results depend on the processing

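No paired analysis was possible because there was 1 library per list, and no replicate could be left out. The lists hold called peaks only, so a missing overlap can be a peak below the caller's threshold. Of 46 alternatives, 26 stayed within the counting interval, or within 1.5 times for a count, and 20 moved. The share of peaks at promoters, 33.3%, was 30.6% with windows of 250 bp, 37.1% with 1000 bp, 23.4% by peak centres, 25.8% at scores of at least 100, 24.5% for protein-coding genes only, 41.9% for all transcript starts and 42.2% without peaks near assembly gaps. The 682 genes became 441 by peak centres, 141 at scores of at least 100 and 417 for protein-coding genes. Overlap with MDA-MB-231, 21.1%, was 58.0% at scores of at least 100, 16.3% at protein-coding genes and 9.37% when only MDA-MB-231 peaks with scores of at least 100 counted. Overlap with HIF-1α, 12.9%, was 35.0% at HAUSP scores of at least 100 and 7.19% at HIF-1α scores of at least 100. The divergent share, 19.8%, was 12% at scores of at least 100, 10.9% for protein-coding genes only, 28.7% for all transcript starts and 8.06% where both genes had to be protein-coding. The CpG island share of bound promoters, 80.8%, was 65.0% under the stricter criteria. By construction, score minima, narrower windows, peak centres, limits to protein-coding genes and stricter criteria can only lower the counts. Wider windows and all transcript starts can only raise them. For the sizes of the changes, and for shares whose number of peaks also changed, the cause was not tested.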

Other observations

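The share of protein-coding promoters with a HAUSP peak differed between chromosomes. It was highest on chromosome 19, with 56 of 1480 promoters or 3.78%, followed by chromosome 5 with 3.28% and chromosome 12 with 3.17%. With ZNF genes left out, chromosome 19 had 3.01%, below the 3.21% of chromosome 5 and the 3.12% of chromosome 12. Chromosome 13 had 1 of 322 promoters, or 0.311%, chromosome 22 had 0.667% and chromosome 21 had 0.873%. On chromosome 19, 58 of 113 HAUSP peaks lay at a promoter, or 51.3%, against 33.3% over all chromosomes. Differences in copy number between chromosomes of this cell line were not examined.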
